A study of Rattus norvegicus with 4 samples.

Results

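TCF/LEF transcription factors and the Groucho corepressors were followed in neonatal rat cardiomyocytes that overexpressed atrogin-1, an F-box protein of a muscle ubiquitin ligase. The family holds 8 genes: the 4 TCF/LEF factors Lef1, Tcf7, Tcf7l1 and Tcf7l2, and the 4 Groucho genes Tle1, Tle2, Tle3 and Tle4. They are 8 of 14217 genes measured. Every probe set paired with their symbols was taken, which gave 15 of the 31042 tested, 10 for TCF/LEF factors and 5 for Groucho genes. The genes were chosen by name, as a family, with their log2 signals in both groups already known. Their values in that comparison, those of the statistical fit included, are therefore a description and no test of the family.

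Heart muscle cells from the ventricles of newborn Sprague-Dawley rats, 1 to 2 days old, were infected for 24 hours, in medium without serum, with an adenovirus for GFP alone (Ad-GFP) or for atrogin-1 together with GFP (Ad-atrogin-1). Each group had 2 arrays, numbered 1 and 2, which the labels call biological replicates. Both groups carry virus and GFP, and the level of atrogin-1 is that set by a virus. The values are log2 signals made by the authors by robust multi-array average (RMA), a method that combines the probes of a probe set into a value on a common scale. A change of 1 on this scale is 2-fold. The signal of 1 probe set cannot be set against that of another, so levels are compared between groups within a probe set. Precision is limited by the number of arrays, the sources do not say which culture gave each array, and p-values measure only the spread between these arrays.

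TCF/LEF proteins bind DNA through a shared HMG box and act as a switch at Wnt target genes. Without Wnt signals they recruit Groucho proteins, which repress transcription by joining histone deacetylases to the DNA. When Wnt stabilizes beta-catenin, this partner displaces Groucho and brings coactivators in its place. Lef1 and Tcf7 are best known from lymphocytes and are themselves among the genes that Wnt signaling turns on, whereas Tcf7l1 is known mostly as a repressor. In the heart, Wnt and beta-catenin signaling guides the growth and differentiation of early muscle cells.

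Fbxo32, the gene of atrogin-1, checked the labels: its log2 signal was 5.24 and 5.04 on the Ad-GFP arrays and 13.55 and 13.47 on the Ad-atrogin-1 arrays. Of 11 cardiomyocyte markers 10 were measured, and none passed the test in either direction. Troponin T2 (Tnnt2), for example, lay at 12.99 and 13.05 in Ad-GFP and at 13.01 and 12.81 in Ad-atrogin-1, and Myh6 at 10.01 and 11.09 against 11.84 and 10.89. The summed signal of these markers was 14.92 to 14.98 on the log2 scale in Ad-GFP and 14.90 to 15.22 in Ad-atrogin-1. At 3 of the 10 both Ad-atrogin-1 arrays lay above both Ad-GFP arrays, and at 0 below, where 20.7% and 22.3% of all genes did so. Their median log2 fold change was 0.22, against -0.0028 over all genes. In RNA of whole cultures, fewer cells of a type and less RNA per cell cannot be told apart. A gene passed here if it changed 2-fold or more with an adjusted p below 0.05, from limma, a linear model with a moderated test, fitted over all probe sets. The same fit called 77 of 31042 probe sets higher and 8 lower. With 1 probe set per gene and p adjusted over the 14217 genes, it called 65 higher and 8 lower, and 74 and 20 after a further quantile normalization.

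Lef1, Tcf7 and Tle1 were each more than 2-fold higher on the Ad-atrogin-1 arrays, and the other 5 genes of the family lay between 1.504-fold lower and 1.02-fold higher at all of their probe sets. Without a test, 0.823% of all genes and 0.709% of all probe sets were at least 2-fold higher. Of the 15 probe sets, 4 had groups apart toward higher values in Ad-atrogin-1, 7 toward lower values, and 4 overlapped. Over all probe sets, 18.3% lay apart toward higher values and 22.1% toward lower values. Both Lef1 probe sets passed the test over all probe sets, of which 0.248% were called higher, and no member was called lower, against 0.0258% of all probe sets. At gene level Lef1 and Tcf7 passed, where 0.457% of all genes were called higher and 0.0563% lower. At an unadjusted p under 0.05 were 6 of the 15 probe sets and 11.2% of all probe sets. Because the family was chosen with these values known, nothing is read from these counts. The median log2 fold change was -0.090 over the 15 probe sets, 5 of them of Tcf7l2, and -0.012 over all probe sets. With 1 probe set per gene, it was 0.020 over the 8 genes and -0.0028 over all genes.

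**Figure D1:**
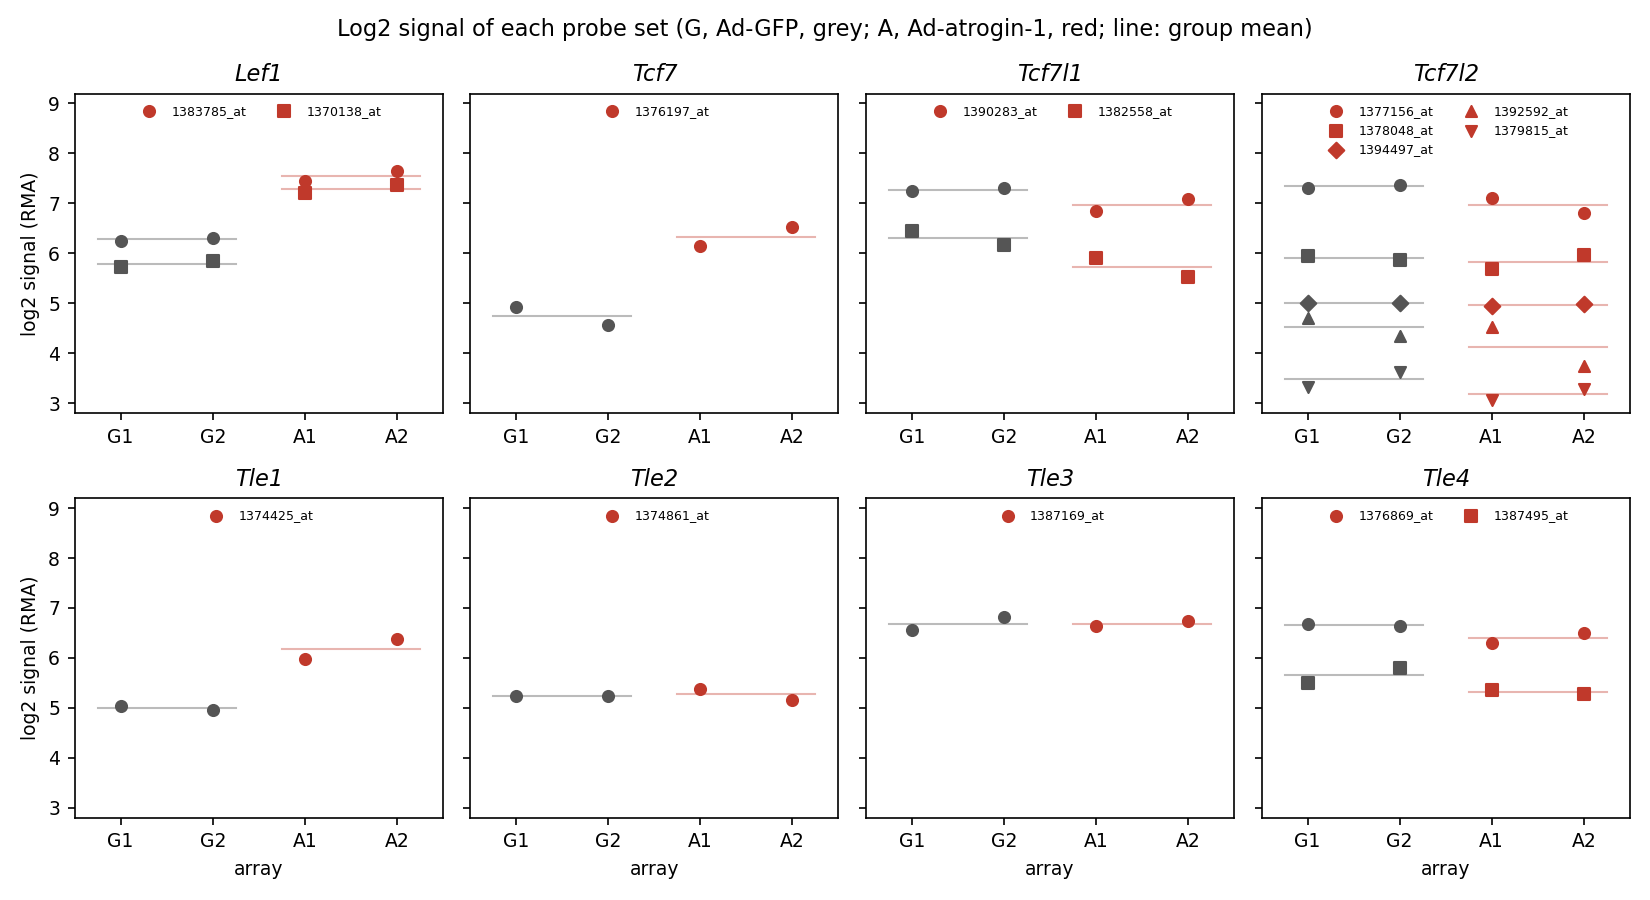
Log2 signal (vertical axis) of the 15 probe sets on each of the 4 arrays (G1 and G2, Ad-GFP, grey; A1 and A2, Ad-atrogin-1, red), with a panel per gene, a marker shape per probe set and a line at each group mean. Lef1, Tcf7 and Tle1 lie higher on both Ad-atrogin-1 arrays, by 1.20 to 1.60 on the log2 scale, and Tcf7l1 and Tle4 lie lower at both of their probe sets.

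Among the activating TCF/LEF factors, Lef1, the lymphoid enhancer binding factor, was measured by a pair of probe sets with like results. Probe set 1370138_at had log2 signals of 5.73 and 5.86 in Ad-GFP and of 7.22 and 7.36 in Ad-atrogin-1. The brighter probe set, 1383785_at, had 6.26 and 6.30 in Ad-GFP and 7.44 and 7.65 in Ad-atrogin-1. At both, the groups lay far apart next to the distance between arrays of a group. The log2 fold change was 1.499 (standard error 0.13, 2.83-fold, limma adjusted p = 0.0246) at the first and 1.27 (standard error 0.13, 2.40-fold, limma adjusted p = 0.0404) at the second. The 95% intervals of these changes, 1.19 to 1.81 and 0.95 to 1.59, overlap.

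Tcf7, which encodes the T cell factor TCF1, had the highest log2 fold change of the family, with an interval that overlaps those of Lef1. Its single probe set, 1376197_at, lay at 4.92 and 4.56 in Ad-GFP and at 6.14 and 6.52 in Ad-atrogin-1. The groups did not overlap, and the lowest Ad-atrogin-1 array lay 1.22 above the highest Ad-GFP array. The log2 fold change was 1.60 (standard error 0.19, 3.02-fold), from a mean of 4.74 ± 0.26 to 6.33 ± 0.27 (SD, n = 2 each), and its 95% interval ran from 1.12 to 2.07. Its limma adjusted p was 0.0593 over all probe sets and 0.0451 over genes, so the Tcf7 call depends on what p is adjusted over. Over probe sets it passed with arrays centred on their medians (limma adjusted p = 0.0458) and in the upper 60% by signal (0.0447), so it depends on scaling and filter too. That filter went by the mean signal of all arrays, and Tcf7 was kept through its Ad-atrogin-1 signals. The pass under the filter is therefore no independent support. With any 1 array left out, no member was called: the adjusted p over probe sets of Lef1 and Tcf7 was then 0.483 to 0.552, while the log2 fold change stayed at 1.16 to 1.57 for Lef1 and 1.40 to 1.79 for Tcf7.

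The promoter windows of the 3 genes with over 2-fold higher signal are shown because TCF/LEF proteins bind a short motif, and Lef1 and Tcf7 are known targets of their own pathway. Each window runs from 250 bases before to 50 bases after the gene's annotated start (RefSeq, GRCr8), 5′ to 3′ on the gene's strand, and all 8 members had one. Capitals mark CTTTGAT or CTTTGAA, the TCF/LEF core motif, searched on both strands.
Tcf7 (chr10:36954230-36954529, minus strand): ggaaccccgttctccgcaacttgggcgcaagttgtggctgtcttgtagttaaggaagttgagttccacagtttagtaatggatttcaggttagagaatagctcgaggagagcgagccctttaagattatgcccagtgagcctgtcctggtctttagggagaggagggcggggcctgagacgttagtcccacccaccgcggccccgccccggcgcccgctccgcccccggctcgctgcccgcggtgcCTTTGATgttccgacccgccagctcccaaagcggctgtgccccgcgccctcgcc
Lef1 (chr2:222340463-222340762, plus strand): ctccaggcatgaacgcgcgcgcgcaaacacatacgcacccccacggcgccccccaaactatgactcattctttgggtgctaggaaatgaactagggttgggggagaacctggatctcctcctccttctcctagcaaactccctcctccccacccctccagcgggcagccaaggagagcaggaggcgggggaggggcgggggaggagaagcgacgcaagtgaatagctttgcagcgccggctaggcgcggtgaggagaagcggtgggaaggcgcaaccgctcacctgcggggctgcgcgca
Tle1 (chr5:90980879-90981178, minus strand): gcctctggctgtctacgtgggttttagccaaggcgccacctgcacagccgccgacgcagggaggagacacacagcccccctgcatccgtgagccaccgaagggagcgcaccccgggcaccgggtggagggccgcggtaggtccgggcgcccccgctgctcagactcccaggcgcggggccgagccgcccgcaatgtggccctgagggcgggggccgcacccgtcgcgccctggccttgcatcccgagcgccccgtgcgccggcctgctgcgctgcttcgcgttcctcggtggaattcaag
The Tcf7 window held the motif once, as CTTTGAT on the gene's strand, beginning 4 bases before the annotated start and running across it. Among the members, the other 7 windows held no match, which says only that these letters are not in these 300 bases. The motif was found in 8.73% of all 33469 windows and in 8 of 29 windows of 28 TCF/LEF target genes. These 8 were the windows of Axin2, Cd44, Cdx1, Dkk1, Mmp7, Nkd1, Sp5 and Tbxt. The member windows were rich in G and C, with a median of 65.2% against 51.7% over all windows. A match is a match of letters and was not shown to be a binding site.

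Among the other TCF/LEF factors, Tcf7l1, a repressor, and Tcf7l2, a main partner of beta-catenin in many tissues, had lower or overlapping signals in Ad-atrogin-1, and none of their 7 probe sets passed the test. The Tcf7l1 probe set 1390283_at lay at 7.24 and 7.31 in Ad-GFP and at 6.84 and 7.09 in Ad-atrogin-1, and 1382558_at at 6.45 and 6.16 against 5.91 and 5.53. At both probe sets the groups did not overlap. The log2 fold changes were -0.31 (standard error 0.14) and -0.59 (standard error 0.18), with limma adjusted p of 0.481 and 0.326.

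Tcf7l2 was measured by 5 probe sets, all with a log2 fold change below 0, from -0.39 to -0.048. The brightest, 1377156_at, lay at 7.30 and 7.38 in Ad-GFP and at 7.11 and 6.81 in Ad-atrogin-1. Its groups did not overlap, and its log2 fold change was -0.38 (standard error 0.14, limma adjusted p = 0.429). Of the other 4 probe sets, 2 had overlapping groups. The dimmest, 1379815_at, lay at 3.07 to 3.63, under the lower quartiles of the arrays (3.88 to 3.94), so the size of its change is uncertain. At 1378048_at the change turned from -0.090 to 0.054 without Ad-atrogin-1 replicate 1. The 95% interval of the brightest Tcf7l2 probe set ran from -0.74 to -0.016, which does not reach a 2-fold decrease. That of 1392592_at, whose groups overlapped, ran from -1.08 to 0.30 and does reach it.

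**Figure D2:**
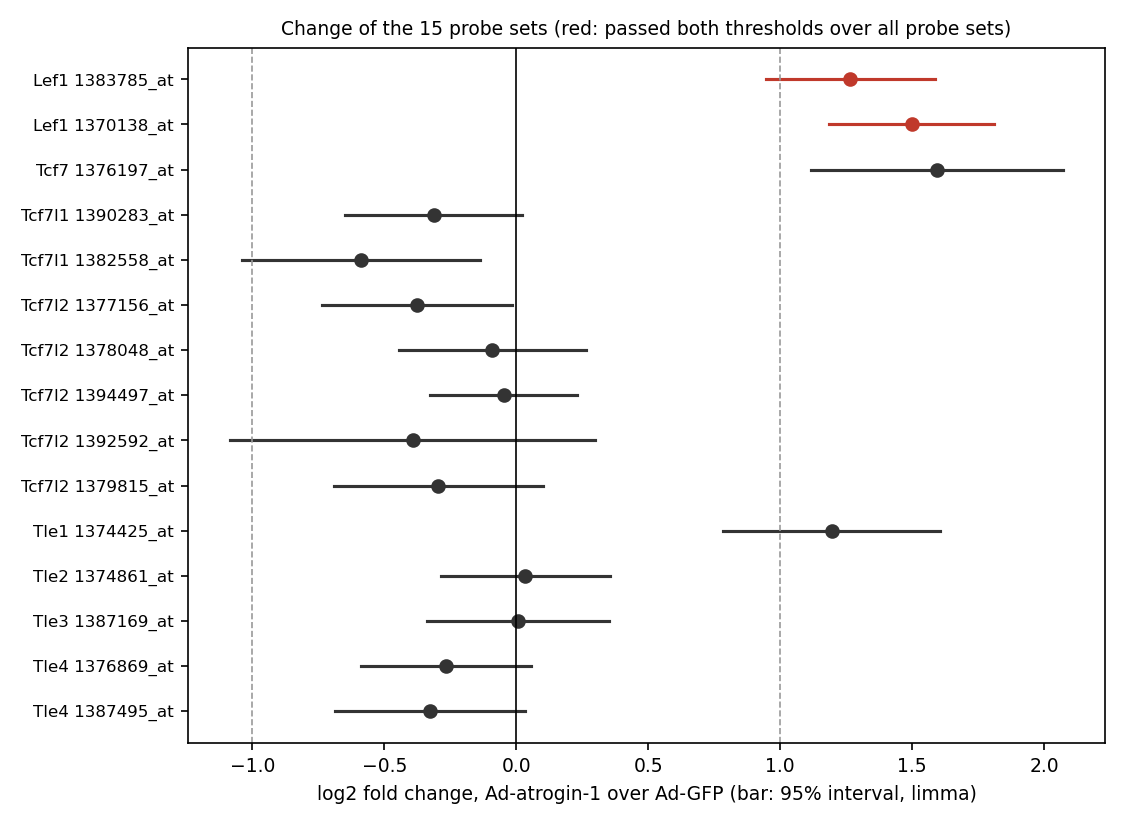
Log2 fold change of Ad-atrogin-1 over Ad-GFP (horizontal axis) for each of the 15 probe sets, with bars for the 95% intervals of the limma fit, red where a probe set passed over all probe sets and dashed lines at 2-fold. Both Lef1 probe sets are red at 1.27 and 1.499, Tcf7 and Tle1 lie beyond 2-fold at 1.60 and 1.20 without passing, and the other 11 points lie between -0.59 and 0.035.

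The 4 Groucho genes encode corepressors of like structure, and of these Tle1 differed most between the groups. Tle1 (1374425_at) had log2 signals of 5.03 and 4.95 in Ad-GFP and of 5.98 and 6.39 in Ad-atrogin-1. Both Ad-atrogin-1 arrays lay above both Ad-GFP arrays, by 0.95 to 1.44. The log2 fold change was 1.20 (standard error 0.17, 2.29-fold), with a limma adjusted p of 0.0782 over probe sets and 0.0570 over genes, so Tle1 did not pass. At gene level it passed with arrays centred on their medians (limma adjusted p = 0.0471) and after a further quantile normalization (0.0498).

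Tle2 and Tle3 had overlapping groups, with log2 fold changes of 0.035 (95% interval -0.29 to 0.36) and 0.0061 (-0.34 to 0.35). Tle2 lay at 5.24 on both Ad-GFP arrays and at 5.39 and 5.17 in Ad-atrogin-1, and Tle3 at 6.55 and 6.81 against 6.64 and 6.73. The sign of both is uncertain: Tle3 turned to -0.0023 after quantile normalization, and Tle2 to -0.075 without Ad-atrogin-1 replicate 1. Tle4 had lower signals in Ad-atrogin-1 at both of its probe sets, without overlap, from 6.69 and 6.64 to 6.29 and 6.51 at 1376869_at and from 5.51 and 5.80 to 5.37 and 5.29 at 1387495_at. Its log2 fold changes, -0.27 and -0.33, did not pass (limma adjusted p = 0.535 and 0.487).

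Of 42 genes listed as TCF/LEF targets 33 were measured. At gene level 5 of them were called higher, none lower and 28 did not pass, where 0.513% of all genes were called in either direction. The 5 were the Wnt feedback gene Axin2 (log2 fold change 3.41, standard error 0.19), the receptor gene Tnfrsf19 (2.15, 0.17), the homeobox gene Msx2 (1.96, 0.23), Mycn, a transcription factor gene of the MYC family (1.48, 0.16), and the growth factor gene Fgf9 (1.19, 0.14). Axin2 had log2 signals of 4.29 and 4.47 in Ad-GFP and of 8.05 and 7.55 in Ad-atrogin-1 (limma adjusted p = 0.00663). The calls of Msx2 and Fgf9 depend on what p is adjusted over. Their brightest probe sets each had a limma adjusted p of 0.0449 over genes and 0.0561 over all probe sets, where neither passed. Over the whole list, 18 genes had groups apart toward higher values and 4 toward lower values, where 20.7% and 22.3% of all genes did. The median log2 fold change of the list was 0.19, against -0.0028 over all genes. The list holds genes that earlier results of these data had shown to be higher, so its count is not independent of them.

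Other well-known targets did not pass. Among those just short of the thresholds, chosen after their values were seen, the Wnt receptor ligase gene Znrf3 had 0.99 (limma adjusted p = 0.0516) and the cyclin gene Ccnd2 1.11 (0.0976). The inhibitor gene Nkd1 had 0.97 (standard error 0.19) and its relative Nkd2 -0.069 (standard error 0.13). The lowest values of the list, also named after they were seen, were those of Ccnd1, Cd44 and Ephb3. The cyclin D1 gene Ccnd1 had -0.52 (standard error 0.12), the adhesion gene Cd44 -0.52 (standard error 0.16) and Ephb3 -0.45 (standard error 0.23). The oncogene Myc had -0.30 (standard error 0.16). With any 1 array left out, none of the targets was called. With the probe sets of a gene averaged, 3 were called, Axin2, Tnfrsf19 and Mycn. Msx2 then had 1.07 (limma adjusted p = 0.0682), since its dimmest probe set had -0.24, and Fgf9 fell short of 2-fold at 0.98.

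**Figure D3:**
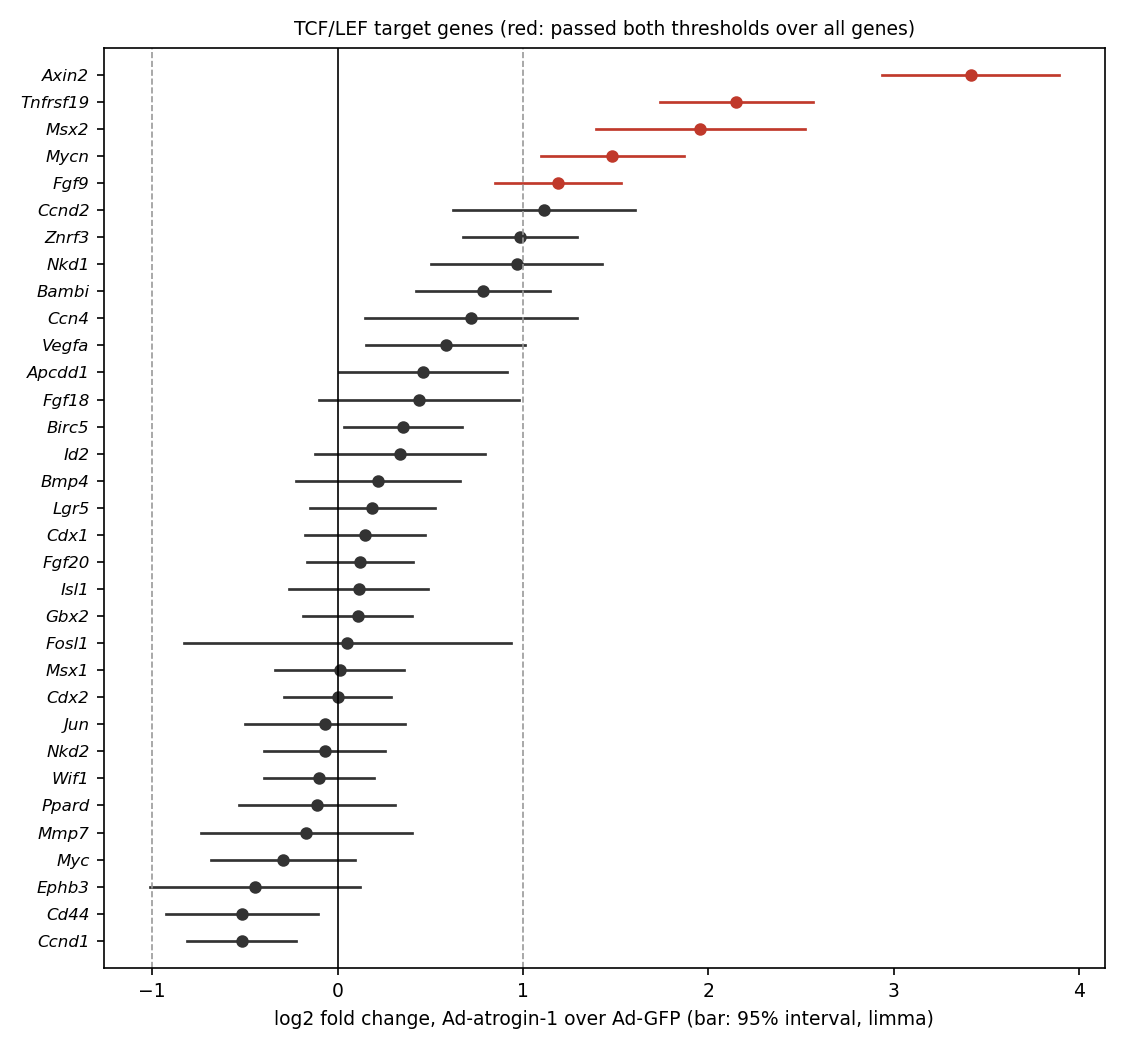
Log2 fold change of Ad-atrogin-1 over Ad-GFP (horizontal axis) for the 33 measured TCF/LEF target genes, with bars for the 95% intervals of the limma fit, red for genes that passed over all genes and dashed lines at 2-fold. The 5 red genes lie at 1.19 to 3.41, and Ccnd1 and Cd44 lie lowest at -0.52.

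Of 17 genes of beta-catenin and its nuclear cofactors 16 were measured, and none passed (median log2 fold change 0.0021), with 1 at an unadjusted p under 0.05, as 13.4% of all genes were. The cofactor gene Bcl9 differed by 0.0076 on the log2 scale (standard error 0.16), and Jup, which encodes the beta-catenin relative plakoglobin, had the lowest at -0.44 (standard error 0.12, limma adjusted p = 0.228). The probe sets of Ctnnb1, the beta-catenin gene, disagreed. The brightest, 1373067_at, lay at 11.34 and 11.26 in Ad-GFP and at 11.27 and 11.36 in Ad-atrogin-1, and 1373470_at differed by -0.0037. Probe set 1369733_at lay at 8.34 and 8.39 in Ad-GFP and at 11.32 and 11.34 in Ad-atrogin-1, 7.82-fold higher (log2 fold change 2.97, standard error 0.11, limma adjusted p = 0.00270 over all probe sets). The dimmest, 1375284_at, had 3.68 and 3.62 against 4.55 and 5.29 (log2 fold change 1.28, limma adjusted p = 0.150). Averaged over its 4 probe sets, Ctnnb1 had 1.06 and passed (limma adjusted p = 0.0378). Which part of the transcript each probe set covers was not analysed here.

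Of 17 genes that work with Groucho proteins or phosphorylate TCF/LEF factors 16 were measured, and none passed (median log2 fold change 0.0071). At an unadjusted p under 0.05 (limma) were 2 of them and 13.4% of all genes. The Groucho relatives Tle5 and Tle6 had -0.0073 (standard error 0.14) and 0.25 (standard error 0.12). Hdac1, a histone deacetylase gene, had -0.42 (standard error 0.12, limma adjusted p = 0.237). Of 17 DNA-binding factors listed here as partners of Groucho, 11 were measured. Binding to Groucho was not tested for any of them. Foxa2 alone was called, toward lower values, where 0.0563% of all genes were called lower. Foxa2, a forkhead factor gene of endoderm, lay at 6.05 and 5.92 in Ad-GFP and at 3.47 and 3.72 in Ad-atrogin-1 (log2 fold change -2.39, standard error 0.14, limma adjusted p = 0.00701). Its Ad-atrogin-1 signals lie under the lower quartiles of the arrays, so the size of this change is uncertain. The Notch effector genes Hes1, Hey1 and Hey2 had -0.26, 0.19 and -0.053 and did not pass.

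**Figure D4:**
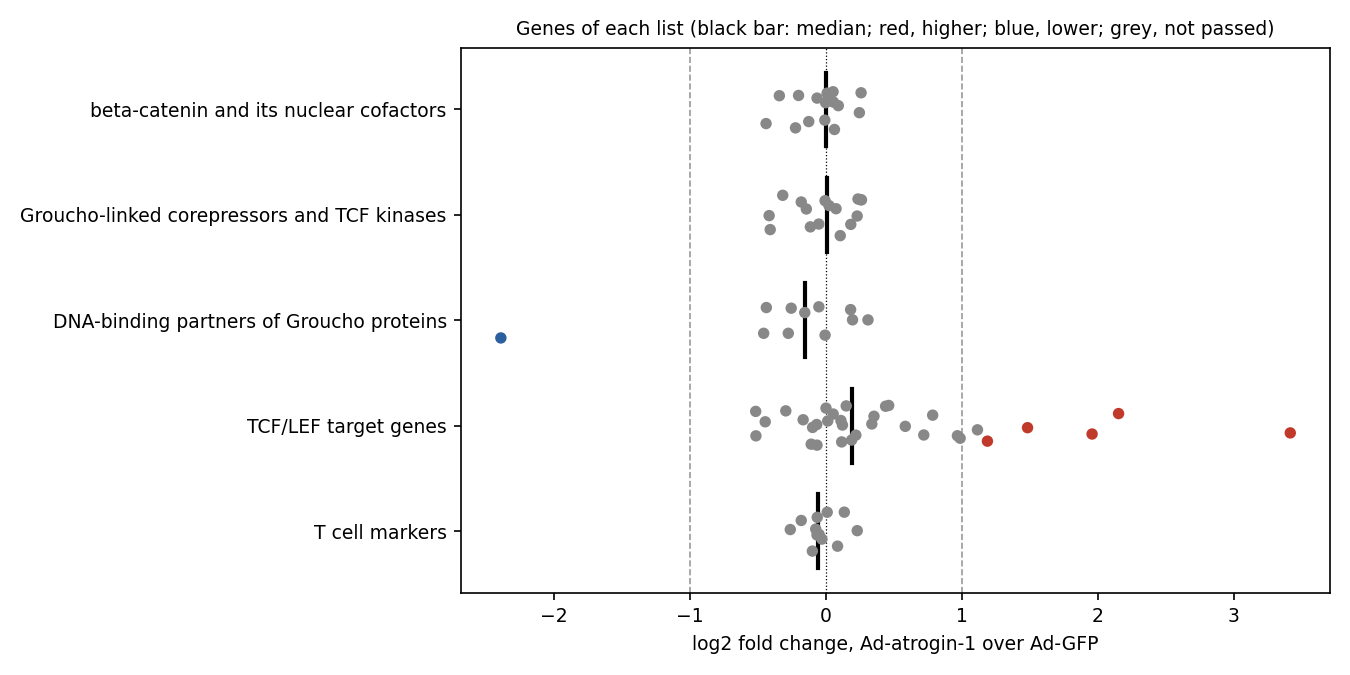
Log2 fold change of Ad-atrogin-1 over Ad-GFP (horizontal axis) of the measured genes of each list, as points (red, called higher; blue, called lower; grey, not passed), with a black bar at the median and dashed lines at 2-fold. The 5 red points are TCF/LEF targets, the blue point is Foxa2 at -2.39, and the T cell markers lie between -0.26 and 0.23.

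Because Lef1 and Tcf7 are well known from lymphocytes, T cell markers were read beside them. None of the 12 passed (0 at an unadjusted p under 0.05, limma, against 13.4% of all genes), and their median log2 fold change was -0.058. Their summed signal was 7.96 to 8.04 on the log2 scale in Ad-GFP and 7.86 to 8.03 in Ad-atrogin-1. The T cell receptor genes Cd3e and Cd3d had -0.067 and -0.26. Of the 12 markers 5 lay under the lower quartiles on all arrays, Cd3d, Cd3g, Cd5, Cd8b and Cd28, where a small share of cells could go unseen. The part of T cells in the higher Lef1 and Tcf7 was not tested.

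Markers of other cell types were mixed, and none passed. The summed signals of both groups overlapped for fibroblasts (13.35 to 13.73 in Ad-GFP, 13.63 to 13.70 in Ad-atrogin-1), endothelium (9.04 to 9.49 and 9.05 to 9.89), macrophages (8.09 to 8.27 and 7.51 to 8.82) and smooth muscle with pericytes (12.11 to 12.26 and 12.24 to 12.31). Among the 7 smooth muscle and pericyte markers, 3 had an unadjusted p under 0.05 (limma) and did not pass, where 13.4% of all genes had such a p. Rgs5 had a log2 fold change of 0.98 and Myh11 of 0.32, with groups apart toward higher values. Cspg4 had -0.50, with groups apart toward lower values. Over all genes, 20.7% lay apart toward higher values and 22.3% toward lower values. Arrays within Ad-atrogin-1 also differed, with the endothelial gene Emcn at 5.48 and 8.02 and the macrophage gene Adgre1 at 6.19 and 3.67.

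The summed signals were apart for the markers of epithelium and mesothelium, at 7.97 to 8.19 in Ad-GFP and 8.66 to 8.83 in Ad-atrogin-1. Of its 7 genes, 1, Krt19, lay apart toward higher values and 2 toward lower values, where 20.7% and 22.3% of all genes did. The higher sum rests on Krt19, and the median log2 fold change of the list was -0.072. The keratin genes went different ways. Krt19 lay at 3.20 and 5.48 in Ad-GFP and at 7.89 and 8.09 in Ad-atrogin-1 (log2 fold change 3.65, limma adjusted p = 0.107). Krt18 lay at 7.47 and 6.58 against 6.06 and 6.33 (log2 fold change -0.83, limma adjusted p = 0.332), and Krt8 had -0.24, with overlapping groups. Epcam and Cdh1 lay at 2.39 to 2.63 on all arrays. These markers of other cell types were named after their values were seen, and their part in the higher Lef1, Tcf7 and Tle1 was not tested.

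The genes with the pattern most like that of Lef1 over the 4 arrays, among 14216 others, were Nucb2, Far1, Ostc and Selenos. Likeness is the root mean square distance between log2 profiles centred on the Ad-GFP mean, and it was 0.033, 0.053, 0.062 and 0.0745 for these. For Tcf7 they were Sel1l at 0.128, Mycn at 0.173, Rbm15b at 0.189 and Slc35b1 at 0.204. With so few arrays many genes share such a pattern, and by the largest difference on any array 3 of the 4 nearest to Lef1 and 2 of the 4 nearest to Tcf7 were the same.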

How the data were processed

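Gene expression was measured on Affymetrix rat genome arrays, 2 for Ad-GFP and 2 for Ad-atrogin-1. The deposited log2 values were made by the authors: per the methods and the labels, RMA gave a log2 signal per probe set. Control probe sets, 57 in all, did not enter the fit, and no filter on signal was set. The platform's probe annotation paired 20826 probe sets with 1 gene, 436 with several and the rest with none.

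limma 3.58.1 in R 4.3.3 (lmFit, eBayes, two-sided, no block) was fitted on all 31042 probe sets, with Benjamini-Hochberg adjustment over them. For genes, the brightest probe set was kept from the same fit and p was adjusted over 14217 genes. Calls were made at 2-fold and an adjusted p below 0.05. SDs are over 2 arrays, and intervals are 95% intervals of the fit.

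The members and gene lists were chosen with earlier results of these data known. Named genes are the members, Fbxo32, the genes called in each pathway list and its first 3, the first 2 of marker lists reported singly, and the nearest patterns; others are said to be chosen after their values were seen or are named for a probe set, extreme or motif. Alternatives were other scalings, a signal filter, other priors, tests and thresholds, averaged probe sets, a replicate block and each array left out. Promoter windows are RefSeq's (GRCr8). Figures were drawn with matplotlib 3.10.9.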

Additional observations from a re-analysis of the deposited data

How the results depend on the processing

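The precision is limited by 2 arrays per group, and no detection call per probe set was used. The log2 fold changes of Lef1, Tcf7 and Tle1 kept their sign in every setting run; what varied was which of them passed. With 1.5-fold or no fold threshold, an intensity trend, a robust prior, or limma refitted on 1 probe set per gene (a setting added after seeing the data), the number of members called did not change. Among all genes, 18 were called lower with arrays centred on their medians, 20 after a further quantile normalization and 13 with probe sets averaged. Among all probe sets, 14 were called lower in each of these scalings and 13 in the upper 60% by signal. That filter, on the mean of all arrays, leaves Foxa2 out through its low Ad-atrogin-1 signals, so 0 of the Groucho partners were called. With averaged probe sets, 3 TCF/LEF targets and, of the beta-catenin list, 1 gene were called. With unadjusted p, limma called 217 probe sets higher and 78 lower and 115 genes higher and 50 lower, and 4 member probe sets; the equal-variance test named here the methods' t-test called 158 and 33 probe sets, 21 genes lower and 4 member probe sets. With adjusted p that test called 0 in all counts.

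The replicate numbers are shared by the groups, but nothing in the labels says that they pair the arrays. Over all probe sets, the deviations of same-numbered arrays correlated at 0.043. With the replicate number as a block, limma called 1 gene and 1 probe set, higher, and 0 lower, and 0 members, 0 TCF/LEF targets and 0 Groucho partners. With each array left out in turn, 0 to 1 genes were called higher and 0 lower, 0 probe sets higher and 0 lower, and 0 members, 0 targets and 0 Groucho partners, since 1 group then has 1 array, assumed to vary like the other group. The log2 fold change then ranged from -0.13 to 0.14 for Tle3, from -0.075 to 0.14 for Tle2, from -0.23 to 0.054 for the Tcf7l2 probe set 1378048_at and from -0.16 to 0.026 for Nkd2, so these changed sign. Tle3 also changed sign after a further quantile normalization, to -0.0023. Of the 4 patterns nearest to Tcf7, 2 were the same by the largest difference on any array. Counting the core CTTTG with any next bases, a choice added after seeing the data, 6 of 8 member windows held a match, against 53.8% of all windows. The cause of these differences was not tested.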
